A study of Mus musculus with 9 samples.

Results

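Transcripts of the hypoxia response were measured in a mouse line of multiple myeloma, a tumour of plasma cells, called 5TGM1-Cas9 because it expresses the Cas9 nuclease. The 10 genes described are *Hif1a*, *Egln1*, *Egln3*, *Bnip3*, *Bnip3l*, *Ankrd37*, *Vegfa*, *Kdm3a*, *P4ha1* and *Ndrg1*, and all 10 were present among the 53077 genes of the expression tables. They were chosen by name as members of the hypoxia-inducible factor (HIF) pathway, with earlier fold changes from these same samples known. Their values against the control cells are therefore given as a description of a chosen group.

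RNA was sequenced from 3 populations with 3 biological replicates each. Control cells carried a lentiviral gRNA against *Rosa26*, a locus that is commonly cut as a neutral target. *Slc2a1* gRNA-transduced cells carried a gRNA against the gene for the glucose transporter GLUT1. *Slc2a1/3/5/6/8* gRNA-transduced cells carried gRNAs against *Slc2a1* and against *Slc2a3*, *Slc2a5*, *Slc2a6* and *Slc2a8*, which encode other transporters of the same family. All 3 populations were transduced cultures, not single clones, so edited and unedited cells were sequenced together. The third population (5-gRNA cells) was made in steps, with the 4 other transporter genes ablated and the cells sorted and expanded before the *Slc2a1* gRNA was added, and this history cannot be told apart from the loss of the genes. The oxygen tension of the cultures and the time of RNA collection are not given in the sources used here.

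HIF is a transcription factor made of an oxygen-regulated alpha subunit, such as HIF-1α (*Hif1a*), and a stable partner, ARNT. When oxygen is present, prolyl hydroxylases of the EGLN family mark the alpha subunit for binding by VHL and for degradation, so HIF activity is set largely at the protein level and not by the *Hif1a* transcript. When HIF accumulates it raises the transcription of glycolytic enzymes, of the glucose transporter gene *Slc2a1* itself, and of genes for mitophagy, angiogenesis and collagen and histone modification. *Egln1* and *Egln3* are themselves HIF targets and form a feedback loop on the pathway.

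HIF binds a short core in DNA that reads ACGTG or GCGTG, which on the other strand reads CACGT or CACGC. The bases before the start site of 4 members are shown with each such match in capitals, from RefSeq promoters on build GRCm38.p6. *Egln1*, *Bnip3* and *Ankrd37* are shown as the members with the largest fitted increases among those that passed with the *Slc2a1* gRNA, and *P4ha1* as the member that passed as lower with all 5 gRNAs. Each stretch covers 250 bases and ends at the base before the start site. They lie at chr8:124949255-124949504 (minus strand), chr7:138909507-138909756 (minus strand), chr8:45999851-46000100 (minus strand) and chr10:59323046-59323295 (plus strand), in that order.
Egln1: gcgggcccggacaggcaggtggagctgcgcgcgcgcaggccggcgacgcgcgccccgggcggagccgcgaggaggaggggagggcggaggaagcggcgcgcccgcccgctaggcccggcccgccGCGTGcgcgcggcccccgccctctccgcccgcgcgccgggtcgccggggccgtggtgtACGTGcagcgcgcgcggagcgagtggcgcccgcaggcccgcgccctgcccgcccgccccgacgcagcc
Bnip3: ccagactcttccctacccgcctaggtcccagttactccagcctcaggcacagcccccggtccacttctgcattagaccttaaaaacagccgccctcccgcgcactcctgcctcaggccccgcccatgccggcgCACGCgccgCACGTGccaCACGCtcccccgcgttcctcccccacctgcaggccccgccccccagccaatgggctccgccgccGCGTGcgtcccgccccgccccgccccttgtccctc
Ankrd37: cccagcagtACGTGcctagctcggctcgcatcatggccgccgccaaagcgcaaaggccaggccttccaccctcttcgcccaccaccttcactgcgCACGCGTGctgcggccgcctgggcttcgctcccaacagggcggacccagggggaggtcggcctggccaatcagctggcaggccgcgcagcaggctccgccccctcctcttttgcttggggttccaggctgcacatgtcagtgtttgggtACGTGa
P4ha1: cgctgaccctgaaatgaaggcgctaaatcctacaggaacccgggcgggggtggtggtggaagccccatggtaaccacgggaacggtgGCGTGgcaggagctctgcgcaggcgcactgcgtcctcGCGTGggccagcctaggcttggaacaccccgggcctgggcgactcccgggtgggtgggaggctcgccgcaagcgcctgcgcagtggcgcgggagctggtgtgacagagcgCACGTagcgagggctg

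Counting from -1 at the base before the start site, the *Egln1* matches began at -126 and -68. The *Bnip3* matches began at -117, -108, -107, -99 and -35, and the pair at -108 and -107 is the palindrome CACGTG, which is also the E-box read by other factors. *Ankrd37* held matches at -241, -155, -152 and -6, of which the pair at -155 and -152 overlap. *P4ha1* held matches at -163, -126 and -16. Over windows of 300 bases (250 before to 50 after the start), 8 of the 8 members with a listed promoter had a match in at least 1 promoter, as had 12628 of all 27025 genes (46.7%). Counted by promoter, 8 of 11 member promoters (72.7%) and 14380 of all 32851 promoters (43.8%) held one, with base composition not matched. The first *Vegfa* promoter and the other two *Kdm3a* promoters held none. A match is a description of the letters and does not show binding. Promoters of *Bnip3l* and *Ndrg1* were not analysed here.

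Each library held between 21838805 and 30537105 estimated counts, and mitochondrial transcripts made up 4.84% to 11.1% of them. The 3 *Slc2a1* gRNA libraries were shallower than every control, at 21939343 to 24211199 against 27166930 to 30537105. Their mitochondrial shares, 8.69%, 10.5% and 6.57%, were each above that of the control with the same number (8.01%, 8.01% and 4.84%), while the 5-gRNA shares of 11.1%, 5.84% and 4.91% were above it in replicates 1 and 3. The part of depth and of mitochondrial RNA in the changes below, those of mitophagy genes among them, was not tested. Of the 7 plasma cell markers, *Xbp1* was the most abundant, at 384 to 568 TPM (transcripts per 1000000, which corrects for length), and *Tnfrsf17* the least, at 0.0725 to 1.36 TPM. The 15 markers of myeloid, T, B, fibroblast and endothelial cells summed to between 0.729 and 2.27 TPM in a library, and *Col1a2* was at 0 in all 9. Of these 15 only *Pdgfra* passed the edgeR test, at a mean of 0.072 TPM in control cells and 0 in the 5-gRNA cells. Among the plasma cell markers *Jchain*, which joins immunoglobulin multimers, passed the test in each comparison, at a log2 fold change of -1.33 (edgeR adjusted p = 0.00529) with the *Slc2a1* gRNA and 0.59 (adjusted p = 0.0348) with all 5 gRNAs, and its part in the results below was not tested. *Slc2a1* read 198, 95.2 and 94.0 CPM (counts per 1000000, scaled between libraries) in the control replicates, 123, 98.5 and 98.0 with the *Slc2a1* gRNA, and 93.3, 91.8 and 52.9 with all 5. The control range overlapped that of the *Slc2a1* gRNA cells, and the log2 fold change was -0.21 (SE 0.18, edgeR adjusted p = 0.544). With all 5 gRNAs, where no library reached the controls, it was -0.66 (SE 0.18, edgeR adjusted p = 0.029). This call was lost without the replicate block (-0.70, adjusted p = 0.101), with gene lengths (-0.54, adjusted p = 0.0973), without control replicate 1 (-0.41, adjusted p = 0.222) or 3, and without 5-gRNA replicate 1 or 3. A frameshift need not lower the transcript, so these levels do not check the labels.

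Control replicate 1 was the highest of the 3 controls for 6 of 10 members, for 32 of the 44 other HIF target genes tested (72.7%), and for 4658 of all 13834 genes (33.7%). For *Bnip3* it was 2.26 and 4.17 times control replicates 2 and 3, and for *Ankrd37* 2.43 and 3.59 times. For *Egln1* the ratios were 1.39 and 1.46, for *Bnip3l* 1.24 and 1.43 and for *P4ha1* 1.25 and 1.33. *Hif1a* ran the other way, at 0.872 and 0.695. *Slc2a1*, a HIF target, was also highest in that library. The part of the culture or library in this spread was not tested.

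In control cells the members covered a wide range of abundance, which can be compared between genes only in TPM because TPM is scaled by transcript length. *P4ha1*, the catalytic subunit of collagen prolyl 4-hydroxylase, had the top level, 104 ± 15.0 TPM (SD, n = 3), and *Bnip3* had 93.3 ± 61.7 TPM. *Vegfa* stood at 46.9 ± 9.16 TPM, *Bnip3l* at 37.5 ± 14.9 TPM and *Kdm3a* at 28.6 ± 4.23 TPM. *Egln1* stood at 17.8 ± 3.45 TPM, *Ankrd37* at 14.8 ± 9.93 TPM and *Hif1a* at 12.3 ± 3.48 TPM. *Ndrg1* was at 0.151 ± 0.0276 TPM and *Egln3* at 0.00823 ± 0.00713 TPM, so these hypoxia-responsive genes were near the floor of detection in control cells. Neighbours in this order had overlapping control values, except that *Kdm3a* exceeded *Egln1*, *Hif1a* exceeded *Ndrg1* and *Ndrg1* exceeded *Egln3* in every replicate.

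Relative to control cells, *Slc2a1* gRNA-transduced cells had higher transcript levels of the prolyl hydroxylase gene *Egln1*, the mitophagy receptor genes *Bnip3* and *Bnip3l*, and *Ankrd37*, an ankyrin repeat gene known as a HIF target. The fitted increases were 1.75-fold, 2.73-fold, 1.46-fold and 2.57-fold. In the same edgeR fit, 5-gRNA cells had higher *Egln1*, *Bnip3l*, *Ankrd37* and *Vegfa* and lower *P4ha1*. With gene lengths taken into account, *Egln1* and *Bnip3* still passed with the *Slc2a1* gRNA, and *Egln1* and *P4ha1* with all 5. The other changes named here did not pass on that scale. *Egln3* is left out of the member counts and medians here, since it reached the low-count filter through the 5-gRNA libraries alone, where it is high. Of the other 9 members, 4 passed the test in the first comparison, all higher, beside 4.64% of all 13834 genes tested (2.25% higher, 2.39% lower). In the second 5 of the 9 passed, 4 higher and 1 lower, beside 15.9% of all genes (8.49% higher, 7.44% lower). Without the replicate block 2 of the 9 passed beside 3.86% of genes, and 4 beside 13.6%. Nothing is read from these member counts, since the members were chosen with these contrasts known. The median log2 fold change was 0.55 over the 9 members and -0.0013 over all genes tested in the first comparison, and 0.39 and 0.0072 in the second. *Hif1a* itself, *Kdm3a* and *Ndrg1* passed in neither comparison. In bulk RNA, fewer cells that express a gene and less RNA per cell cannot be told apart.

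**Figure D1:**
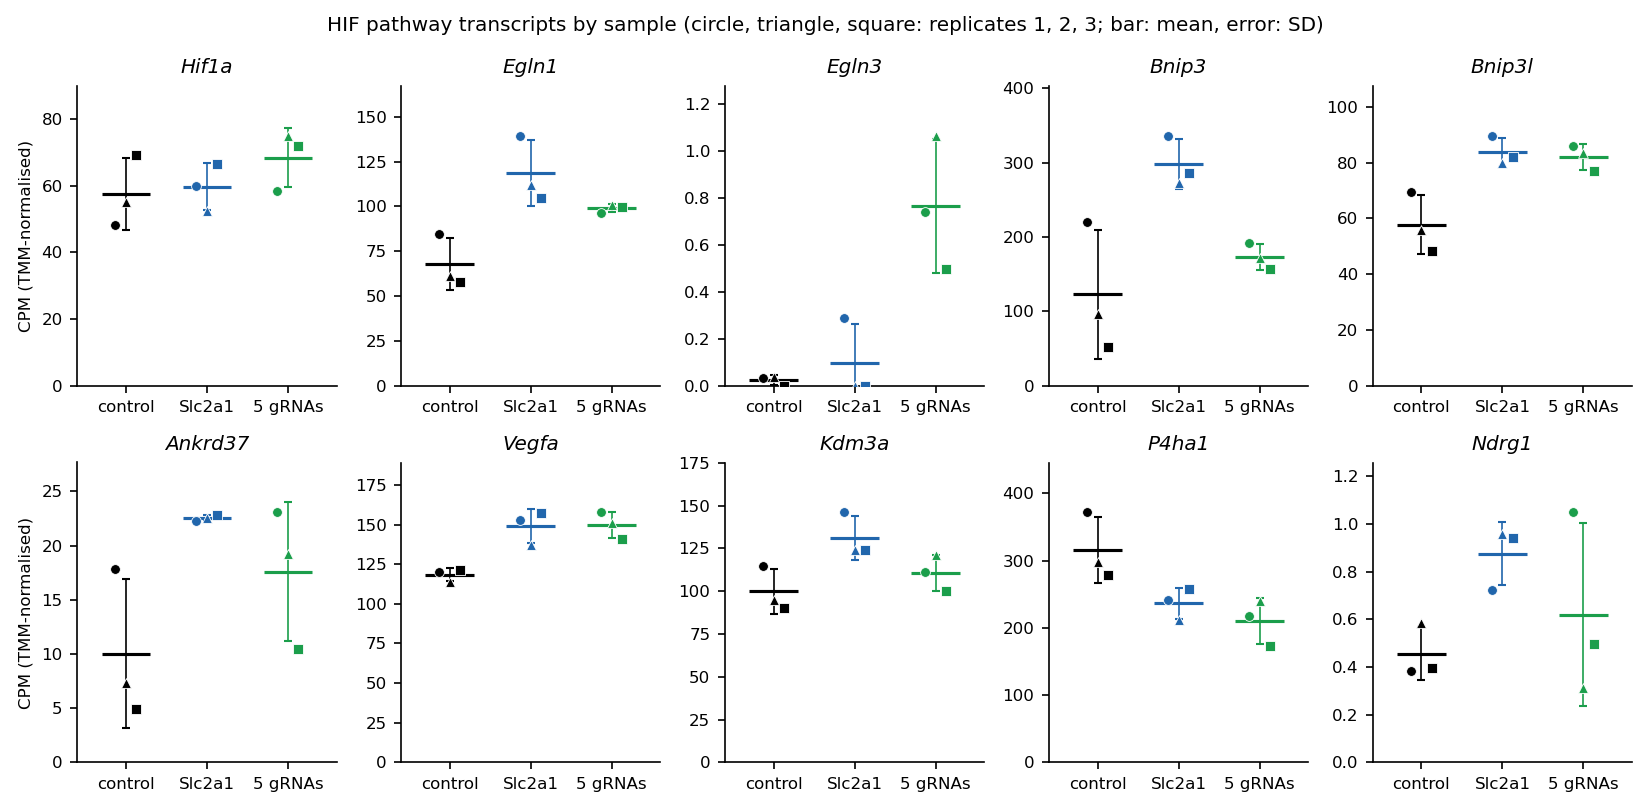
Normalised CPM of each of the 10 members (vertical axes, each from 0) in control, *Slc2a1* gRNA and 5-gRNA cells, with replicates 1, 2 and 3 as circle, triangle and square, the mean as a bar and the SD as the error (n = 3). *Egln1* and *Bnip3l* are higher in all 6 deleted libraries than in any control, while the *Bnip3* and *Ankrd37* controls are spread, with replicate 1 on top.

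*Hif1a* encodes the oxygen-regulated subunit, and its transcript lies at chr12:73901375-73947530 (GRCm38, plus strand), with 8.11% of its exonic bases shared with other annotated genes. It read 48.2, 55.2 and 69.3 CPM in the control replicates, 59.8, 52.5 and 66.6 CPM with the *Slc2a1* gRNA, and 58.3, 74.9 and 71.9 CPM with all 5 gRNAs. The 3 groups overlapped throughout. Its log2 fold change was 0.06 (SE 0.12, edgeR adjusted p = 0.816) with the *Slc2a1* gRNA and 0.26 (SE 0.12, edgeR adjusted p = 0.175) with all 5 gRNAs. The sign of the first value depended on the setting, and it was -0.03 with total count normalization.

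*Egln1* encodes the main oxygen-sensing prolyl hydroxylase, PHD2, at chr8:124908587-124949324 (minus strand), in exons that no other annotated gene shares. The control replicates read 84.8, 61.1 and 58.0 CPM. The *Slc2a1* gRNA replicates read 139, 112 and 105 CPM and the 5-gRNA replicates 96.5, 101 and 99.7 CPM. In CPM every deleted library lay above every control library, and the 5-gRNA libraries, with an SD of 2.19 CPM around 98.9, varied least. In TPM the SD was largest in the 5-gRNA libraries, at 4.93 against 3.45 in controls and 4.29 with the *Slc2a1* gRNA. In log2 terms the change was 0.81 (SE 0.13, edgeR adjusted p = 0.00861) and 0.57 (SE 0.13, edgeR adjusted p = 0.0111). It stayed past the threshold with each sample's gene lengths taken into account, at adjusted p = 0.0329 and 0.023. Leaving out control replicate 2 or 3 ended both calls, as did leaving out *Slc2a1* gRNA replicate 1 or 2 for the first and 5-gRNA replicate 3 for the second, with edgeR adjusted p up to 0.0716 and 0.0878.

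*Egln3*, which encodes the strongly hypoxia-induced hydroxylase PHD3 (chr12:54178981-54203860, minus strand), was almost unread outside the 5-gRNA cells. Its estimated counts were 1, 1 and 0 in the control replicates and 6, 0 and 0 with the *Slc2a1* gRNA. With all 5 gRNAs they were 17, 24 and 14. All 3 of those libraries exceeded all others, and the gene entered the test only through them, so it had to differ in that comparison and no test of it is given. Summed over replicates, 55 counts against 2 in controls gave a depth-scaled ratio of 32.0 (exact 95% interval 8.44 to 271), and 55 against 6 in *Slc2a1* gRNA cells a ratio of 8.60 (3.71 to 24.4). These intervals cover counting error only and describe the libraries. Even in the 5-gRNA cells the level reached only 0.199 to 0.41 TPM.

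*Bnip3* encodes an outer mitochondrial membrane protein that recruits autophagosomes to mitochondria, at chr7:138890836-138909519 (minus strand). It read 219.7, 97.0 and 52.7 CPM in the control replicates, 336, 272 and 286 CPM with the *Slc2a1* gRNA and 192, 172 and 156 CPM with all 5 gRNAs. All *Slc2a1* gRNA libraries were above all controls, whereas the 5-gRNA libraries fell within the control range with control replicate 1 above them. On the log2 scale the fitted change was 1.45 (SE 0.27, edgeR adjusted p = 0.0165) with the *Slc2a1* gRNA and 0.67 (SE 0.27, edgeR adjusted p = 0.108) with all 5 gRNAs. Without the replicate block the first was 1.28 (adjusted p = 0.0603). Without control replicate 1 the values were 1.95 (adjusted p = 0.00231) and 1.17 (adjusted p = 0.00784). The second also passed without 5-gRNA replicate 1 (adjusted p = 0.0341). The first ended without control replicate 2 or 3 or *Slc2a1* gRNA replicate 2, with adjusted p up to 0.0903. Of its exonic bases, 22.3% are shared with an annotated gene on the opposite strand, *Gm45507*, and the strand setting of the counting is not given in the sources used here.

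*Bnip3l* encodes NIX, the related mitophagy receptor (chr14:66985239-67008877, minus strand). The control replicates read 69.3, 55.8 and 48.4 CPM, the *Slc2a1* gRNA replicates 89.6, 79.7 and 81.9 CPM and the 5-gRNA replicates 86.1, 83.3 and 77.0 CPM. Every deleted library lay above every control. The fitted log2 changes were 0.55 (SE 0.11, edgeR adjusted p = 0.0207) and 0.52 (SE 0.11, edgeR adjusted p = 0.00938). With gene length taken into account the first was 0.66 (adjusted p = 0.208) and the second 0.20 (adjusted p = 0.675), so neither passed, the first at no smaller a size, and the effective length that Salmon gave the gene ranged 2.02-fold between libraries. Leaving out any 1 of the control or *Slc2a1* gRNA replicates ended the first (adjusted p up to 0.167), and leaving out control replicate 2 or 3 the second (adjusted p up to 0.0876). Its processed copy, *Bnip3l-ps*, had 0 counts in all 9 libraries.

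**Figure D2:**
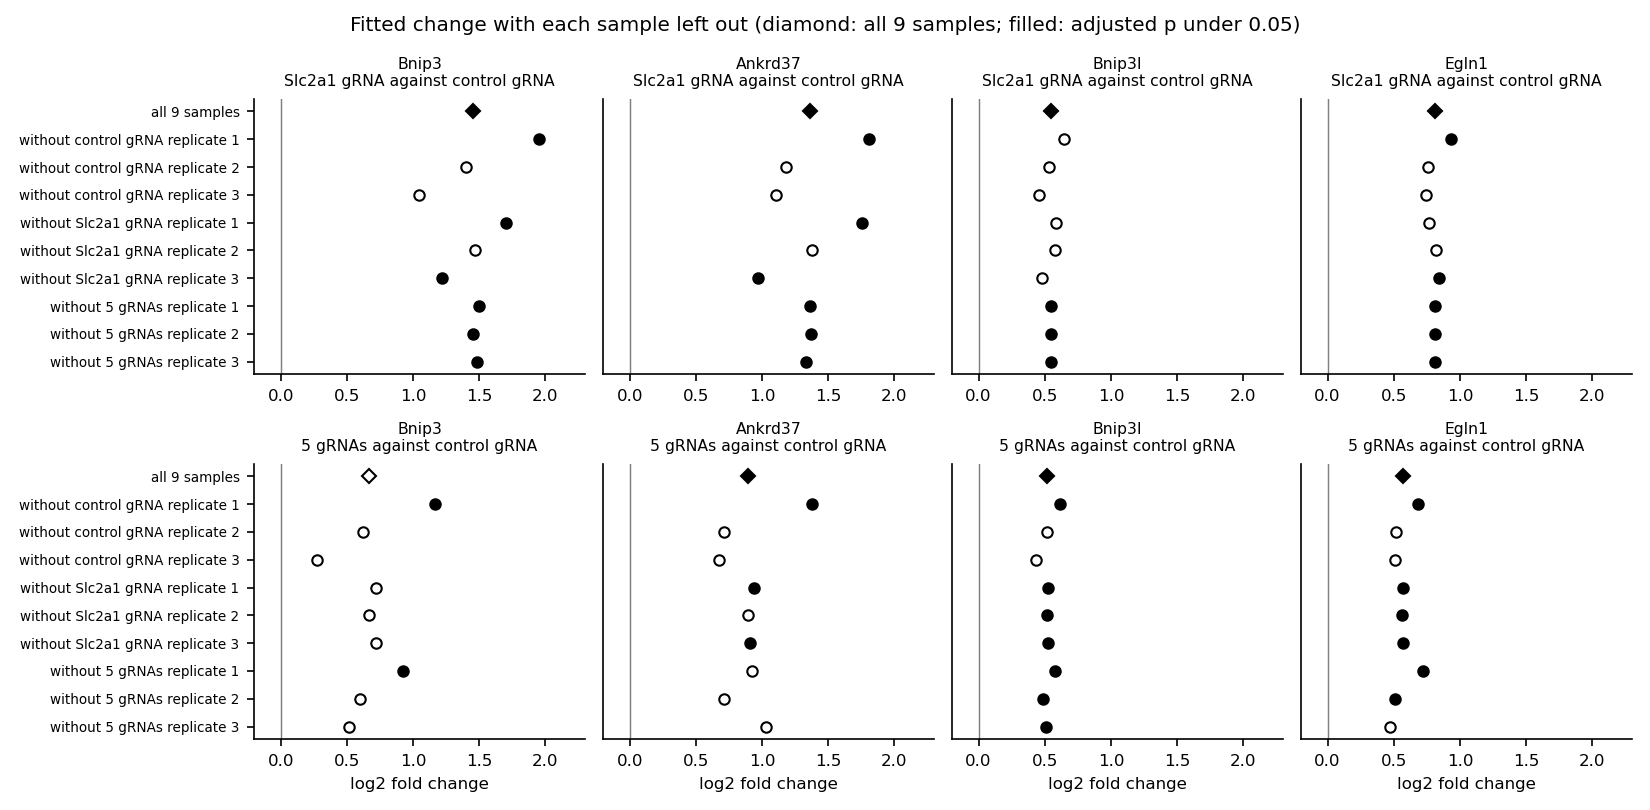
Fitted log2 fold changes (horizontal axes) of *Bnip3*, *Ankrd37*, *Bnip3l* and *Egln1* against control with all 9 samples (diamond) and with each sample left out in turn (circles, 1 line per sample), in the upper panels for the *Slc2a1* gRNA and in the lower for all 5 gRNAs; filled marks have an edgeR adjusted p under 0.05. Every value is above 0, and *Bnip3* runs from 1.04 to 1.95 in the upper panel and from 0.27 to 1.17 in the lower.

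*Ankrd37* (chr8:45996902-46005707, minus strand) was low in control cells, at 17.8, 7.32 and 4.96 CPM. It was nearly level in the *Slc2a1* gRNA replicates, at 22.3, 22.5 and 22.8 CPM, and uneven in the 5-gRNA replicates, at 23.0, 19.2 and 10.5 CPM. The *Slc2a1* gRNA libraries lay above all controls, and the 5-gRNA libraries overlapped them. Fitted log2 fold changes were 1.36 (SE 0.28, edgeR adjusted p = 0.0207) and 0.89 (SE 0.27, edgeR adjusted p = 0.0432). Without the replicate block they were 1.17 and 0.81 (adjusted p = 0.094 and 0.165), and with gene lengths 1.35 and 0.83 (adjusted p = 0.0687 and 0.118), so neither passed at changes of similar or somewhat smaller size. Without control replicate 1 they were 1.81 (adjusted p = 0.00737) and 1.38 (adjusted p = 0.0092). The first was lost without control replicate 2 or 3 or *Slc2a1* gRNA replicate 2, and the second without control replicate 2 or 3, *Slc2a1* gRNA replicate 2 or any 5-gRNA replicate (adjusted p up to 0.134 and 0.198). Exons of *Lrp2bp* and *Ufsp2* on the opposite strand share 26.4% of its exonic bases.

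*Vegfa* encodes the angiogenic growth factor VEGF-A (chr17:46016993-46032369, minus strand). It read 120.2, 114 and 121 CPM in the control replicates, 153, 137 and 157 CPM with the *Slc2a1* gRNA and 158, 151 and 141 CPM with all 5 gRNAs. Controls and deleted libraries did not overlap, and the controls were tight, with an SD of 4.09 CPM. Log2 fold changes were 0.33 (SE 0.10, edgeR adjusted p = 0.0893) and 0.34 (SE 0.10, edgeR adjusted p = 0.0456), so only the second passed. The first passed in 2 of 18 other settings, among them DESeq2 (0.33, adjusted p = 0.0309). The second passed in 4 of 18 other settings. Leaving out any 1 control or 5-gRNA replicate, or *Slc2a1* gRNA replicate 2 or 3, ended this call (adjusted p up to 0.224). With gene lengths the changes were 0.19 (adjusted p = 0.413) and 0.34 (adjusted p = 0.102), and on log2(TPM + 1) 0.03 and 0.25. None of the 4 VEGF receptor genes listed had enough counts to test, the most being 4 counts in a library.

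*Kdm3a* encodes a histone H3 lysine 9 demethylase (chr6:71588972-71632990, minus strand). It read 115, 95.0 and 89.9 CPM in the control replicates, 146, 124 and 124 CPM with the *Slc2a1* gRNA and 111, 121 and 100.1 CPM with all 5 gRNAs. The *Slc2a1* gRNA libraries were above all controls, and the 5-gRNA libraries overlapped them. The log2 fold change was 0.40 (SE 0.11, edgeR adjusted p = 0.0605) and 0.16 (SE 0.11, edgeR adjusted p = 0.361). The first passed in 6 of 18 other settings, among them DESeq2 (0.40, adjusted p = 0.0131) and the fits without 5-gRNA replicate 1 or 2 (adjusted p = 0.0243 and 0.0335). With gene lengths it was 0.11 (adjusted p = 0.694). On TPM both turned negative, to -0.05 and -0.08 with a pseudocount of 1, so no direction is given for this gene. The transcript length listed for it was greater in every deleted library than in any control, as it was for *P4ha1*, beside 7.69% of genes with a varying length for the *Slc2a1* gRNA and 11.7% for all 5 gRNAs.

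*P4ha1* (chr10:59323296-59373304, plus strand) was the member whose levels lay below the controls. It read 372, 297 and 279 CPM in the control replicates, 241, 212 and 258 CPM with the *Slc2a1* gRNA and 217, 240 and 173 CPM with all 5 gRNAs. All 6 deleted libraries lay below all controls in CPM, and in TPM as well, at 55.0 to 82.2 against 89.7 to 119.7. The log2 fold change was -0.40 (SE 0.14, edgeR adjusted p = 0.121) with the *Slc2a1* gRNA and -0.58 (SE 0.14, edgeR adjusted p = 0.0173) with all 5 gRNAs. The second held with gene lengths (adjusted p = 0.0349). It was lost without any 1 control replicate or 5-gRNA replicate 3, at -0.48 (adjusted p = 0.137) without control replicate 1. The first passed in 4 of 18 other settings, among them DESeq2 (-0.40, adjusted p = 0.0446) and the fit without *Slc2a1* gRNA replicate 3 (-0.59, adjusted p = 0.0388).

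*Ndrg1*, a stress-responsive gene widely used as a hypoxia marker (chr15:66929318-66969640, minus strand), was barely read. Its estimated counts were 11, 16 and 13 in the control replicates, 15, 21 and 23 with the *Slc2a1* gRNA and 24, 7 and 14 with all 5. The log2 fold change was 0.95 (SE 0.57, edgeR adjusted p = 0.359) and 0.39 (SE 0.59, edgeR adjusted p = 0.691). Every *Slc2a1* gRNA library lay above every control in CPM, at 0.721 to 0.958 against 0.384 to 0.583, while the 5-gRNA libraries overlapped the controls.

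**Figure D3:**
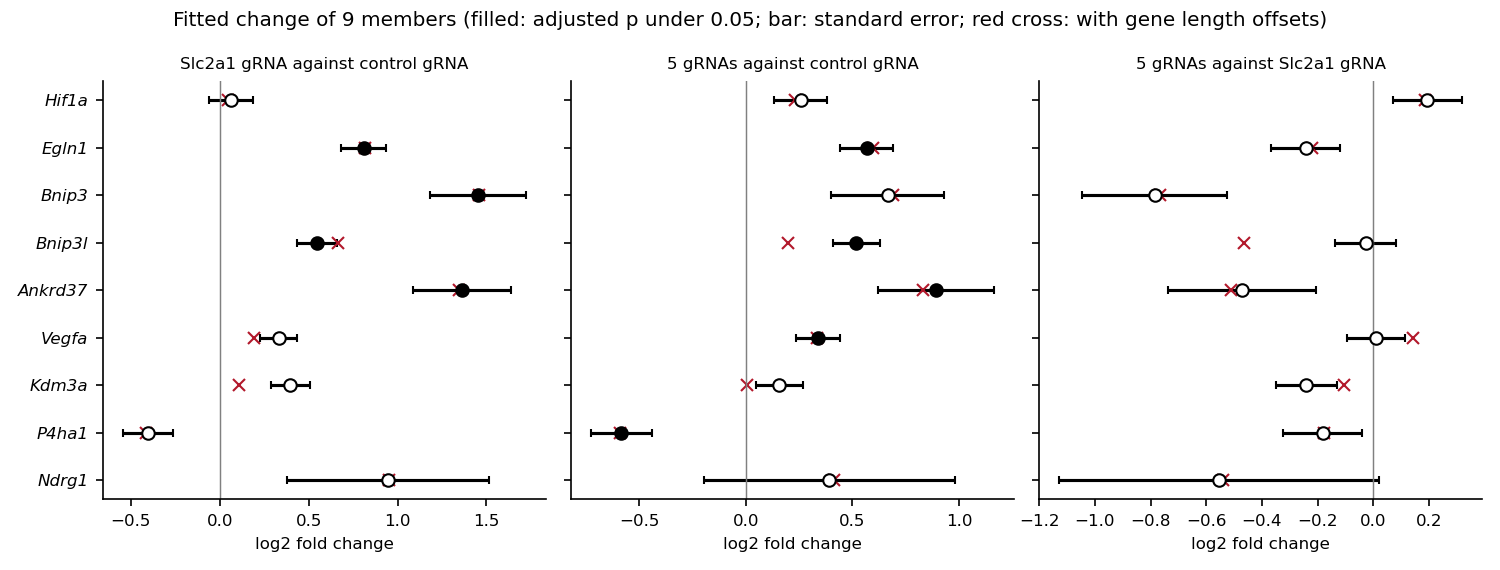
Fitted log2 fold change with its standard error (horizontal axes) for 9 members in the 3 comparisons (panels); filled circles have an edgeR adjusted p under 0.05, and red crosses are the fits with gene length offsets. *Egln3* is left out because its control counts are near 0. The crosses lie close to the circles for *Egln1*, *Bnip3* and *P4ha1* and apart from them for *Bnip3l* and *Kdm3a* in at least 1 comparison with control.

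Between the 2 deleted cultures, 0 of the 9 members other than *Egln3* passed in edgeR, beside 2.31% of all genes tested (0.932% without the replicate block, where also 0 passed). An unadjusted p under 0.05 was found for 2 of the 9, beside 19.1% of all genes. In DESeq2 0 members passed, and 758 genes in all. The median log2 fold change of these 9 in 5-gRNA relative to *Slc2a1* gRNA cells was -0.24, against 0.0034 over all genes. *Bnip3* was lower in all 3 5-gRNA libraries than in any *Slc2a1* gRNA library, at -0.79 (SE 0.26, edgeR adjusted p = 0.125), and without control replicate 1, which enters the shared estimate of spread, the adjusted p was 0.034. *Egln1* was also without overlap in CPM, at -0.24 (adjusted p = 0.315), but overlapped in TPM, at 19.8 to 28.8 against 24.4 to 32.8. *Kdm3a* did not overlap in CPM, at -0.24 (adjusted p = 0.261), but was at -0.10 with gene lengths and -0.02 on log2(TPM + 1). In all, 3 of the 9 did not overlap in CPM between these groups, beside 20.9% of all genes. The corresponding counts were 8 of 9 beside 26.2% for *Slc2a1* gRNA against control and 4 of 9 beside 34.2% for all 5 gRNAs against control. *Bnip3l* differed by -0.03 (SE 0.11) in the edgeR fit, but by -0.47 with gene lengths (adjusted p = 0.424) and -0.38 on log2(TPM + 1). *Vegfa* differed by 0.01 (SE 0.10), by 0.14 with gene lengths (adjusted p = 0.614) and by 0.22 on log2(TPM + 1). The size of these differences thus depended on the scaling, and none passed. The responses of the 2 cultures share their controls.

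Other HIF target genes from a list of 55 were counted in the same fit, of which 44 had enough counts. This list, its parts and the further lists below were chosen with earlier results of these data known. Their counts and shares are therefore a description, and nothing is read from them. In *Slc2a1* gRNA cells 15 of the 44 rose and 0 fell (34.1%, beside 4.64% of all genes), with a median log2 fold change of 0.28. With all 5 gRNAs 10 rose and 1 fell (25.0%, beside 15.9%), with a median of 0.18. Without the replicate block 9 of 44 (20.5%) passed in the first, beside 3.86% of all genes, and 5 of 44 (11.4%) in the second, below the 13.6% of all genes. The blocked counts depended on single libraries, as did those of all genes. In the first, 642 genes passed in all. Without control replicates 1, 2 and 3 the targets numbered 14 of 72, 1 of 11 and 3 of 45 genes called. They were 7 of 64, 1 of 24 and 13 of 943 without *Slc2a1* gRNA replicates 1, 2 and 3. Leaving out 5-gRNA replicates 1, 2 and 3 gave 19 of 1291, 16 of 884 and 16 of 858. In the second, 2204 passed in all. Without control replicates 1, 2 and 3 the targets numbered 11 of 631, 3 of 994 and 2 of 736. They were 19 of 2406, 7 of 1877 and 4 of 877 without 5-gRNA replicates 1, 2 and 3. Leaving out *Slc2a1* gRNA replicates 1, 2 and 3 gave 14 of 2559, 8 of 1836 and 11 of 2092.

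Among the 19 targets that encode glycolytic enzymes and their regulators, 9 rose in *Slc2a1* gRNA cells (47.4%, beside 4.64% of all genes), with a median log2 fold change of 0.63. *Ldha*, lactate dehydrogenase A, rose by 1.15 (SE 0.16, edgeR adjusted p = 0.0062), *Pgam1*, phosphoglycerate mutase, by 1.07 (SE 0.16, adjusted p = 0.00698) and *Hk2*, hexokinase 2, by 1.06 (SE 0.17, adjusted p = 0.0103), all on the log2 scale. Without the replicate block 6 passed (31.6%, beside 3.86%). With all 5 gRNAs 5 rose and 1 fell (31.6%, beside 15.9%), with a median of 0.34, and without the block 2 passed (10.5%, below the 13.6% of all genes). *Ldha* rose by 0.63 (SE 0.16, adjusted p = 0.019), *Pgam1* by 0.57 (SE 0.16, adjusted p = 0.0281) and *Pfkfb3*, which makes the activator of phosphofructokinase, by 0.93 (SE 0.26, adjusted p = 0.0282). None of these 3 passed without the replicate block (0.57, 0.50 and 0.90, adjusted p = 0.101, 0.165 and 0.0639). *Pfkfb4*, a related enzyme, fell by 0.77 (SE 0.22, adjusted p = 0.0362), but with gene lengths the change was -0.24 (adjusted p = 0.663). Between the deleted cultures 0 of 19 passed, beside 2.31% of all genes, with a median of -0.35. An unadjusted p under 0.05 was found for 11 (57.9%, beside 19.1%), and 6 passed in DESeq2, beside 758 genes in all.

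Among the 25 other targets tested, 6 rose in *Slc2a1* gRNA cells (24.0%, beside 4.64% of all genes) and 5 rose with all 5 gRNAs (20%, beside 15.9%). Without the replicate block 3 passed in each, beside 3.86% and 13.6%. *Ddit4*, which encodes the mTORC1 inhibitor REDD1, rose by 1.11 (SE 0.12, edgeR adjusted p = 0.0033) and 1.12 (SE 0.12, adjusted p = 0.000204) on the log2 scale. *Stc2*, a secreted glycoprotein also induced by endoplasmic reticulum stress, rose by 0.70 (SE 0.10, adjusted p = 0.00698) and 1.70 (SE 0.10, adjusted p = 3.97e-06). The first of these *Stc2* values did not pass without control replicate 1 (0.69, adjusted p = 0.0522). *Stc2* was the 1 target of 44 that passed between the deleted cultures (2.27%, beside 2.31% of all genes), at 1.00 (SE 0.10, adjusted p = 0.000364). There 17 of 44 had an unadjusted p under 0.05 (38.6%, beside 19.1%), and DESeq2 called 7, beside 758 genes in all. *Higd1a*, a mitochondrial hypoxia-induced gene, rose by 0.73 (SE 0.13, adjusted p = 0.0146) with the *Slc2a1* gRNA, and by the unblocked fit it was 0.72 (adjusted p = 0.0813). *Cxcr4*, the chemokine receptor, rose by 0.45 (SE 0.11, adjusted p = 0.0192) with all 5 gRNAs, and did not pass without control replicate 1 (0.35, adjusted p = 0.179). Of the targets not tested for low counts, *Plod2*, *Epo* and *Igfbp3* had 0 counts in all libraries and *Car9* at most 14.

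**Figure D4:**
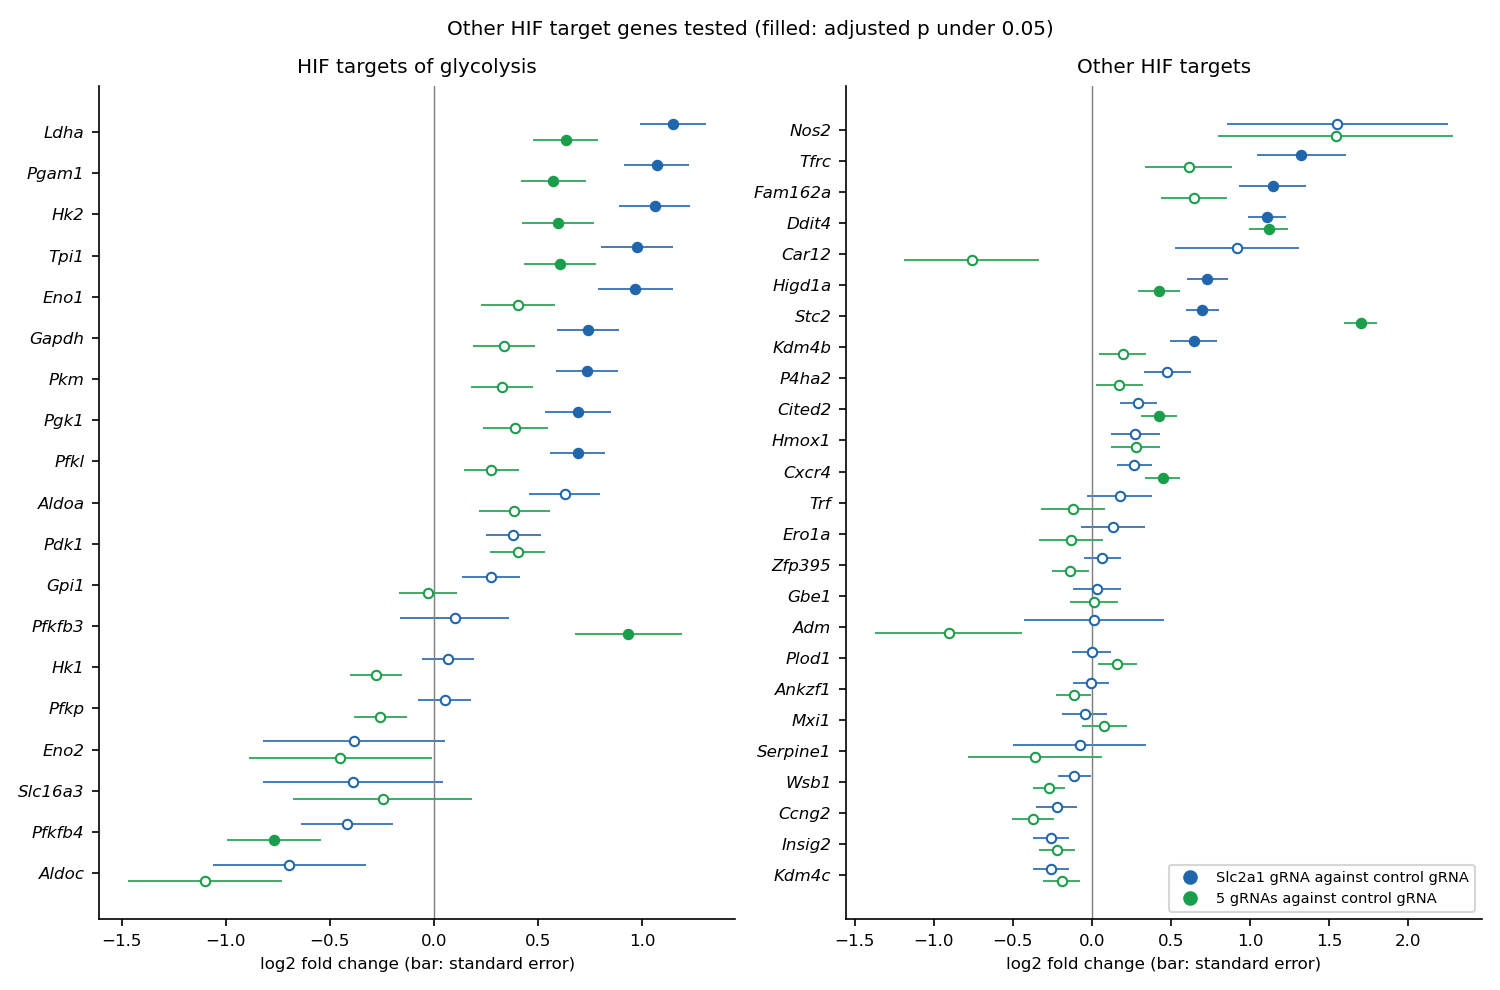
Fitted log2 fold changes with standard errors (horizontal axes) of the other HIF target genes tested, glycolytic and other targets in separate panels, for *Slc2a1* gRNA and all 5 gRNAs against control; filled marks have an edgeR adjusted p under 0.05. For *Ldha*, *Pgam1* and *Hk2* the *Slc2a1* gRNA value is the larger, while *Stc2* is larger with all 5 gRNAs.

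Of 13 HIF subunits and regulators other than the members, 12 were tested, and 0 passed in *Slc2a1* gRNA cells in edgeR, beside 4.64% of all genes. There 4 had an unadjusted p under 0.05 (33.3%, beside 22% of all genes), and 1 passed in DESeq2, beside 1255 genes in all. The unblocked fit called 1 of the 12 (8.33%, beside 3.86% of all genes), *Egln2*, the remaining prolyl hydroxylase. Its log2 fold change was 0.42 (edgeR adjusted p = 0.0539, and 0.0499 without the block), and it passed in 8 of 18 other settings. With gene lengths the *Egln2* change was 0.31 (adjusted p = 0.181), and without control replicate 1 it was 0.37 (adjusted p = 0.297). With all 5 gRNAs 2 of 12 rose (16.7%, beside 15.9% of all genes), namely *Vhl*, the recognition subunit for hydroxylated HIF, at 0.52 (SE 0.11, adjusted p = 0.00837), and *Cul2*, the scaffold of the same ubiquitin ligase, at 0.40 (SE 0.12, adjusted p = 0.0368). Neither passed without control replicate 1 (0.50 and 0.43, adjusted p = 0.0656 and 0.131), and *Vhl* did not with gene lengths (0.36, adjusted p = 0.0806). Between the deleted cultures 0 passed in edgeR, beside 2.31% of all genes. An unadjusted p under 0.05 was found there for 1 (8.33%, beside 19.1%), and 1 passed in DESeq2, beside 758 genes in all. *Epas1*, which encodes HIF-2α, had at most 2 counts in a library. Of 13 related genes of the members, *Egln2* again among them, 7 were tested. In the blocked edgeR fit 0 passed in any comparison, beside 4.64%, 15.9% and 2.31% of all genes. Without the block 1, *Egln2*, passed with the *Slc2a1* gRNA (14.3%, beside 3.86%). An unadjusted p under 0.05 was found for 2, 0 and 1 (28.6%, 0% and 14.3%, beside 22%, 31.4% and 19.1% of all genes). DESeq2 called 2, 0 and 0, beside 1255, 2569 and 758 genes in all. Of 6 other mitophagy receptors and regulators, 1 passed in *Slc2a1* gRNA cells (16.7%, beside 4.64% of all genes). This was *Phb2*, which rose by 0.47 (SE 0.12, adjusted p = 0.0444). With gene lengths the *Phb2* change was 0.48 (adjusted p = 0.0731), and without control replicate 1, 0 of the 6 passed. The other 5 did not pass in either comparison with control.

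The genes most like each member were found by Pearson's r of log2 CPM over the 9 samples, among 8307 genes with a mean of at least 5 TPM. *Bnip3* was closest to *Pgk1* (r = 0.988), *Fam162a* (0.981) and *Eno1* (0.978), and *Ankrd37* to *Pgk1* (0.966), *2310010J17Rik* (0.965) and *Ctso* (0.955). *Bnip3l* was closest to *Ddit4* (0.98), *Smox* (0.946) and *Pdk1* (0.944), and *Egln1* to *Pgm1* (0.976), *Gbp4* (0.974) and *Dnajc2* (0.96). *P4ha1* was closest to *Serinc2* (0.988), *Neil1* (0.978) and *Odf2* (0.96). These points share libraries and groups, and r here is a description of likeness.

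On the TPM scale fewer groups stood apart. TPM takes gene length into account but lacks the scaling between libraries that the CPM values have. *Bnip3* and *Ankrd37* kept every *Slc2a1* gRNA library above every control, at 173 to 236 against 46.9 to 163 TPM and 27.7 to 32.9 against 8.66 to 26.2 TPM, and *Egln1* did so at 24.4 to 32.8 against 14.8 to 21.6 TPM. In 5-gRNA cells *Egln1* was at 19.8 to 28.8 TPM and overlapped the controls, as it did not in CPM. The listed length of *Egln1* was 3594 bases in every library, and the cause of this overlap was not tested. *Bnip3l* overlapped the controls in both deleted cultures. It was at 39.5 to 62.8 TPM in *Slc2a1* gRNA cells and 26.8 to 53.2 TPM with all 5 gRNAs, against 25.5 to 54.2 TPM in controls. *Vegfa* overlapped in both as well, at 42.6 to 50.4 and 44.7 to 65.7 against 36.5 to 53.9 TPM. In limma on log2(TPM + 1), 0 members and 0 of all genes passed with the *Slc2a1* gRNA, and 0 members and 433 genes with all 5, so the first count says nothing of the members.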

How the data were processed

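RNA was made into cDNA with oligo-dT primers and sequenced as paired reads by the study. The authors mapped reads with Salmon 1.5.1 (version per the submitters' processing notes) and deposited, per sample, estimated counts, TPM, and the length and effective length of each gene, 4 values in all. The annotation, genome build and strand setting of that step are not given in the sources used here. A fractional value was found in 47.7% of the nonzero count entries. Coordinates and exon overlaps came from GENCODE M21 on GRCm38.

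Samples were grouped by their titles. The deposited estimated counts were rounded and tested in edgeR 4.0.16 (R 4.3.3) with its quasi-likelihood test after TMM scaling and the default low-count filter, the replicate number as a block, all 9 samples in 1 fit, and a Benjamini-Hochberg adjusted p under 0.05 over the 13834 genes tested. Every adjusted p comes from that fit or a named alternative. CPM values are TMM-scaled. Standard errors were derived from the F statistic. Levels between genes use the deposited TPM. The block follows the paired test that the study states for its transporter transcripts. As a check, same-numbered control and *Slc2a1* gRNA samples deviated together (r = 0.149, 0.111 and 0.215), whereas control and 5 gRNA samples (0.162, -0.065 and 0.127) and both deleted cultures (-0.107, -0.034 and -0.042) did not in every pair. Differently numbered pairs ran from -0.2 to 0.0378 for control and *Slc2a1* gRNA. They ran from -0.254 to 0.147 for control and 5 gRNA samples, and from -0.162 to 0.194 between the deleted cultures. The replicates are called biological by the study. The p-values of the main fit rest on the spread left between samples after group and replicate number are fitted. Replicates differed by more than sampling noise.

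Alternatives were DESeq2 1.42.0, no block, total count normalization, no filter, a minimum of 10 counts per sample, fits of 2 groups alone, limma 3.58.1 on log2(TPM + 1) and log2(TPM + 0.1), and leaving out each sample. Effective gene lengths as offsets were added after seeing the data. The tests were tried on simulated data, and no result given here rests on that trial. The 10 members and the gene lists were chosen with earlier results of these data known. All 10 members were named, and up to 3 genes in each direction with the smallest adjusted p from each other list, plus the genes most like each member that passed (3 each, not all printed). *Plod2*, *Epo*, *Igfbp3*, *Car9* and *Egln2* were named after their values were seen.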

Additional observations from a re-analysis of the deposited data

Results flagged for a closer look

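The lengths that Salmon listed for each gene, which no comparison used as an outcome, differed between groups for *Kdm3a* and *P4ha1*. The listed length is a mean over a gene's transcripts weighted by their estimated abundance. For *Kdm3a* it ran from 3171 to 3599 bases in control cells, from 3973 to 4138 in *Slc2a1* gRNA cells and from 3633 to 3901 in *Slc2a1/3/5/6/8* gRNA cells, so the deleted cultures were longer by ratios of 1.21 and 1.12 without overlap. For *P4ha1* it ran from 2904 to 2944 bases in control cells, from 2953 to 2973 and from 2970 to 3018 in the deleted cultures, at ratios of 1.01 and 1.02, also without overlap. Among the 10839 genes whose listed length varies, 7.69% were longer without overlap with the *Slc2a1* gRNA and 11.7% with all 5 gRNAs. Which transcripts carry the difference was not tested.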

How the results depend on the processing

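Of 533 values of single members under other settings, 418 kept their direction and side of the threshold, 76 fell short of it, 19 newly passed it and 20 changed sign. These values include those of *Egln3*, so nothing is read from them for that gene. Members called in *Slc2a1* gRNA against control numbered 4, and became 7 in DESeq2, 2 without the replicate block, 7 with only the 2 groups compared, 0 in both limma fits, 2 with length offsets (chosen after seeing the data), and 0 to 5 with a sample left out (0 without control replicate 2 or 3 or *Slc2a1* gRNA replicate 2, and 2 without *Slc2a1* gRNA replicate 1). Other targets there (15) became 9 without the replicate block, 0 and 2 in limma with pseudocounts of 1 and 0.1, and 1 to 19 with a sample left out. All genes (642) became 1255 in DESeq2, 1448 unfiltered, 2268 with 2 groups, 0 and 52 in limma, 165 with length offsets, and 11 to 1291 with a sample left out. With all 5 gRNAs against control, members numbered 5 without *Egln3*, and became 0 in both limma fits, 3 with total counts, 2 with length offsets and 0 to 5 with a sample left out (0 without control replicate 2 or 3, 3 without *Slc2a1* gRNA replicate 2, 3 and 1 without 5-gRNA replicates 2 and 3). Counted with *Egln3*, which the filter admitted through these libraries alone, they were 6, with 0 and 1 in limma, 3 with length offsets and 0 to 6. Other targets (11) became 5 without the block, 7 with total counts, 21 unfiltered, 2 in both limma fits and 2 to 19 with a sample left out. All genes (2204) became 433 and 462 in limma, 1323 with length offsets and 631 to 2559 with a sample left out. Between the deleted cultures, members other than *Egln3* (0) became 1 unfiltered, 1 with 2 groups and 0 to 1 with a sample left out. Other targets (1) became 7 in DESeq2, 13 unfiltered, 2 with at least 10 counts, 2 with 2 groups, 0 in both limma fits and 1 to 2 with a sample left out. All genes (319) became 758 in DESeq2, 129 without the block, 974 unfiltered, 116 with 2 groups, 31 and 32 in limma, 95 with length offsets and 42 to 383 with a sample left out. Signs changed in values that did not pass. *Hif1a* with the *Slc2a1* gRNA was -0.0297 with total counts, -0.111 and -0.119 in limma, and -0.0603 to 0.17 with a sample left out (below 0 without control or *Slc2a1* gRNA replicate 1). *Egln3* there ran from -2.47 (without *Slc2a1* gRNA replicate 1) to 2.44 with a sample left out. *Kdm3a* was -0.0546 and -0.0564 in limma with the *Slc2a1* gRNA and -0.0765 and -0.0792 with all 5. *Ndrg1* with all 5 ran from -0.275 (without 5-gRNA replicate 1) to 0.866, and *Slc2a1* with its own gRNA from -0.406 to 0.0416 (without control replicate 1). Between the deleted cultures, *Bnip3l* was -0.465 with length offsets, -0.383 and -0.391 in limma, 0.0176 with total counts and -0.0608 to 0.0507 with a sample left out (above 0 without *Slc2a1* gRNA replicate 3 or 5-gRNA replicate 1). *Vegfa* was 0.142 with length offsets, 0.217 and 0.221 in limma, -0.0026 with at least 10 counts, -0.00437 with 2 groups, and -0.0392 to 0.0889 with a sample left out (below 0 without *Slc2a1* gRNA replicate 2 or 5-gRNA replicate 1 or 2). *P4ha1* ran from -0.342 to 0.00405 (without *Slc2a1* gRNA replicate 3). The cause of these shifts was not tested. Where a group had 2 samples left, the spread was taken from the pooled fit. The values of *Egln3* and *Ndrg1* rested on at most 24 counts in a library each.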
